A study of Mus musculus with 35 samples.

Results

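Early 2-cell (2C) mouse embryos injected with Kdm5b-yfp mRNA were compared with water-injected 2C embryos by total RNA sequencing. The comparison took in 15 of the 35 samples of the series, chosen by their labels: 6 Kdm5b 2C samples and 9 control 2C samples, the remaining 20 being zygotes. All embryos were wild-type C57BL/6NRj, fertilised in vivo, and both groups shared freezing as zygotes, thawing and culture before injection. In the Kdm5b group the cytoplasm of both blastomeres received mRNA for KDM5B with a C-terminal YFP tag, at about 1150 ng/µl, and in the control group the water in which that mRNA had been eluted, so that no other RNA served as a control. Embryos were collected 5 to 6 h after injection and 5.5 to 8 h after division, in late S phase. Among the Kdm5b samples, 5 consisted of 1 whole embryo each and 1 of a pool of 3 blastomeres taken from 3 embryos. Of the controls, 6 were single embryos, 1 was a pool of 2 blastomeres from 2 embryos and 2 were pools of 3 blastomeres from 3 embryos. The pools were made from embryos in which injection had left only 1 blastomere intact, the dead one being discarded. Kdm5b-injected embryos whose YFP signal was absent or very faint had been left out.

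KDM5B is a demethylase that takes methyl groups off lysine 4 of histone H3 (H3K4me3), a mark of active promoters that in mouse oocytes also covers broad domains. These broad domains persist after fertilisation and are lost during the 2C stage. The early 2C embryo still relies on RNA stored in the oocyte, while a first set of embryonic genes, such as the Zscan4 and Obox families, and the retrovirus-like repeat MERVL are being transcribed. The comparison asks whether genes or repeats change when a demethylase of H3K4me3 is supplied before the main activation of the embryonic genome.

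Levels are given as CPM, the count of a gene scaled to the total of its sample. Gene counts added up to 8705584 to 12877962 fragments per control sample and 11248797 to 13117592 per Kdm5b sample. Kdm5b itself, which the injected and the embryonic transcripts share, took 8.27% to 15.8% of the gene counts in Kdm5b samples and at most 0.0189% in controls (two-sided exact permutation test of the means, p = 2.00e-04, the smallest these group sizes allow), and its row was removed before any other step. All 8 oocyte markers had counts in all 15 samples and so had 8 of 10 markers of the 2C embryo. Of 19 cumulus cell markers, 3 (Amh, Inha and Col1a2) were at 0 in every sample and 16 had a median under 1 CPM, and the summed level of the list was 20.8 to 40.6 CPM in Kdm5b samples and 21.3 to 59.4 CPM in controls.

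Before the results, 2 features of the libraries need to be given. First, the library index numbers were split into U81 to U88 and U89 to U95, called strips 11 and 12 here. The strips are inferred from the index numbers in the sample names. Strip 11 held 5 of 6 Kdm5b samples but 3 of 9 controls, so that strip and injection overlap, and results are given without and with a strip term in the model. Whether the strips differed in handling or time is not given in the labels. Second, control samples 2 and 3, both single embryos on strip 11, stood apart: they had counts on 11841 and 12155 genes against 13855 to 15301 in the other controls and 14292 to 14946 in Kdm5b samples, and the lowest median correlations with the other samples (0.865 and 0.883 against 0.901 to 0.937, log2 CPM). Since they are 2 of the 3 controls on strip 11, counts, lists and the main genes are also given without them.

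**Figure D1:**
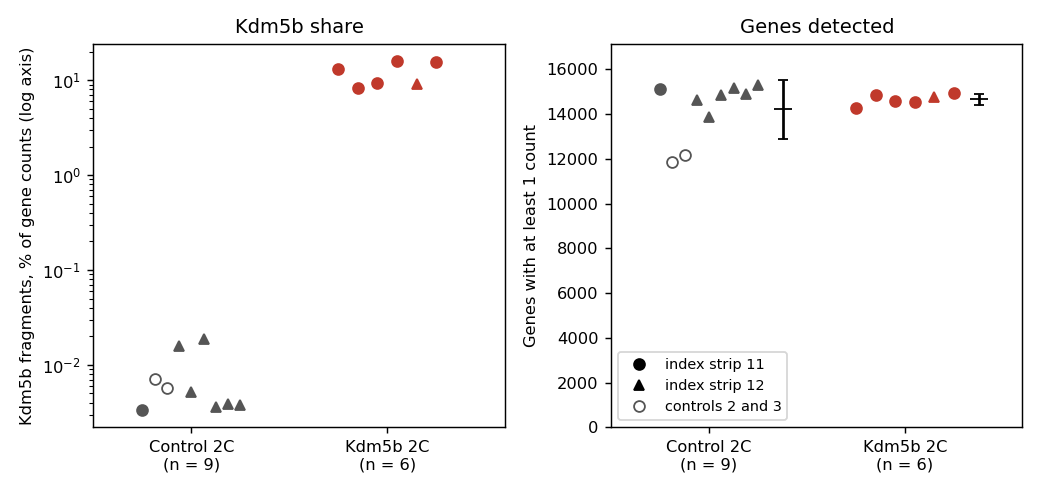
Each point is 1 of the 15 samples, circles for strip 11 and triangles for strip 12, with open circles for control samples 2 and 3. The left panel gives Kdm5b fragments as a percentage of gene counts on a log axis, where all 6 Kdm5b samples lie above 8%, and the right panel the number of genes with at least 1 count, with mean and SD beside the points, where control samples 2 and 3 lie lowest at 11841 and 12155.

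Without the strip term, 3 of 12244 genes tested were lower in Kdm5b 2C embryos at an adjusted p under 0.05 (edgeR quasi-likelihood test, 0.0245% of genes) and 0 were higher (0%). They were Ttk, which encodes the MPS1 kinase of the spindle assembly checkpoint, Psmd4, the ubiquitin receptor subunit of the proteasome cap, and Obox7, a homeobox gene of the oocyte-specific Obox family. Of these, Obox7 alone was also past the threshold of 1 on the log2 fold change (1 lower, 0.00817%, and 0 higher, 0%). At an unadjusted p under 0.05 there were 601 lower genes (4.91%) and 551 higher genes (4.50%). Ttk was named after its values had been seen, and Psmd4 was also named by the rule for its list.

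The 250 bases before the start of these 3 genes, and of Larp7, which is described below, are shown because H3K4me3 is concentrated at such start regions and these are the 3 genes above and the gene with the smallest p past both thresholds once the strip term was added. They are from RefSeq (GRCm38.p6), written 5′ to 3′ on the strand of the gene, with CG dinucleotides in capitals.
Ttk (chr9:83834439-83834688, plus strand): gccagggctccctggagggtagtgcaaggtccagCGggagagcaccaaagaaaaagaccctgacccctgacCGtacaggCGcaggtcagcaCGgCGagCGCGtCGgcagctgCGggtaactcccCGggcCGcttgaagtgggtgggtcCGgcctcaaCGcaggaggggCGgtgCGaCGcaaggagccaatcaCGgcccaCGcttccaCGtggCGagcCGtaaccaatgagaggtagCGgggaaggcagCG
Psmd4 (chr3:95042615-95042864, minus strand): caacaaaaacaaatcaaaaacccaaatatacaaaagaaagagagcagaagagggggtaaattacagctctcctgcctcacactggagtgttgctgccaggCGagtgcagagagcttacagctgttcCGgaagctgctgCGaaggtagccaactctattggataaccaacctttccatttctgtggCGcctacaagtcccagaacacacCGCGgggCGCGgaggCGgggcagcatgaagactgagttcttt
Obox7 (chr7:14659458-14659707, plus strand): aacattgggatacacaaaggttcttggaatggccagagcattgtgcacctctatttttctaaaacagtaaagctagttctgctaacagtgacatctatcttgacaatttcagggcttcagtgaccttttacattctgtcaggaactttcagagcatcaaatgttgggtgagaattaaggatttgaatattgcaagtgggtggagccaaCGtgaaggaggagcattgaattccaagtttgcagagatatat
Larp7 (chr3:127553350-127553599, minus strand): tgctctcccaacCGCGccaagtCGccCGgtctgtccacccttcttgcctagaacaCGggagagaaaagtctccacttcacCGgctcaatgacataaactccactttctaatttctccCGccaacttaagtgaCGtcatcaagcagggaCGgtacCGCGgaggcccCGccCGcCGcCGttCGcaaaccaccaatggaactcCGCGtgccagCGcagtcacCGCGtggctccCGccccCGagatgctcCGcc
The stretch before Obox7 holds 1 CG dinucleotide, against 9 before Psmd4, 23 before Ttk and 24 before Larp7. Over the 9390 tested genes that have an entry, the median was 16 CG dinucleotides in this window, with quartiles of 9 and 23. The other tested genes of the 12244 have no entry, so these values do not stand for all genes tested. Histone marks were not measured in these samples.

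Ttk (chr9:83834689-83872390, GRCm38) lay at 188, 227 and 285 CPM (lowest, median and highest) in Kdm5b 2C samples against 332, 390.2 and 482 CPM in the controls. Every Kdm5b sample was below every control. The means were 233 ± 34.7 CPM (SD, n = 6) against 403 ± 61.1 CPM (SD, n = 9), a log2 fold change of -0.79 ± 0.12 (SE, adjusted p = 0.0175). With the strip term it was -0.79 ± 0.14 (adjusted p = 0.00723), and without control samples 2 and 3 and without the strip term it was -0.79 (adjusted p = 0.0363).

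Psmd4 (chr3:95032691-95042614) lay at 75.1, 96.7 and 125 CPM (lowest, median and highest) in Kdm5b 2C samples against 144, 168 and 239 CPM in the controls. The groups did not overlap here either, and control samples 2 and 3 had the highest values. The log2 fold change was -0.88 ± 0.14 without the strip term (adjusted p = 0.0175), -0.91 ± 0.15 with it (adjusted p = 0.00616), and -0.77 without these 2 controls and without the strip term (adjusted p = 0.0426).

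Obox7 (chr7:14659708-14665996) lay at 25.9, 42.7 and 73.5 CPM (lowest, median and highest) in Kdm5b 2C samples against 78.9, 98.9 and 110.5 CPM in the controls. The highest Kdm5b value, in sample 2, lay just under the lowest control value, and the remaining 5 Kdm5b samples were at or below 52.8 CPM. The means were 45.3 ± 16.6 CPM (SD, n = 6) against 95.1 ± 11.1 CPM (SD, n = 9), a log2 fold change of -1.07 ± 0.18 without the strip term (adjusted p = 0.0287), -1.02 ± 0.21 with it (adjusted p = 0.0131) and -1.13 without control samples 2 and 3 (no strip term, adjusted p = 0.0426). Obox genes have close copies, and fragments that map to several of them may not have been counted, so the split between members is uncertain. Across all genes tested, 16 (0.131%) had every Kdm5b sample below every control and 12 (0.0980%) had every Kdm5b sample above every control. The same 3 genes, and no other, were at an adjusted p under 0.05 when control samples 2 and 3 were left out of the fit without the strip term. Leaving out 1 sample at a time, Ttk and Psmd4 both stayed under that p with any control left out and without Kdm5b samples 2 or 3, Psmd4 alone stayed without Kdm5b sample 5, and no gene passed without Kdm5b samples 1, 4 or 6. By the same p, 0 genes passed in single embryos only, and DESeq2 called 83 lower and 21 higher genes on all 15 samples. In bulk RNA such as this, fewer cells that express a gene and less RNA per cell cannot be told apart.

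**Figure D2:**
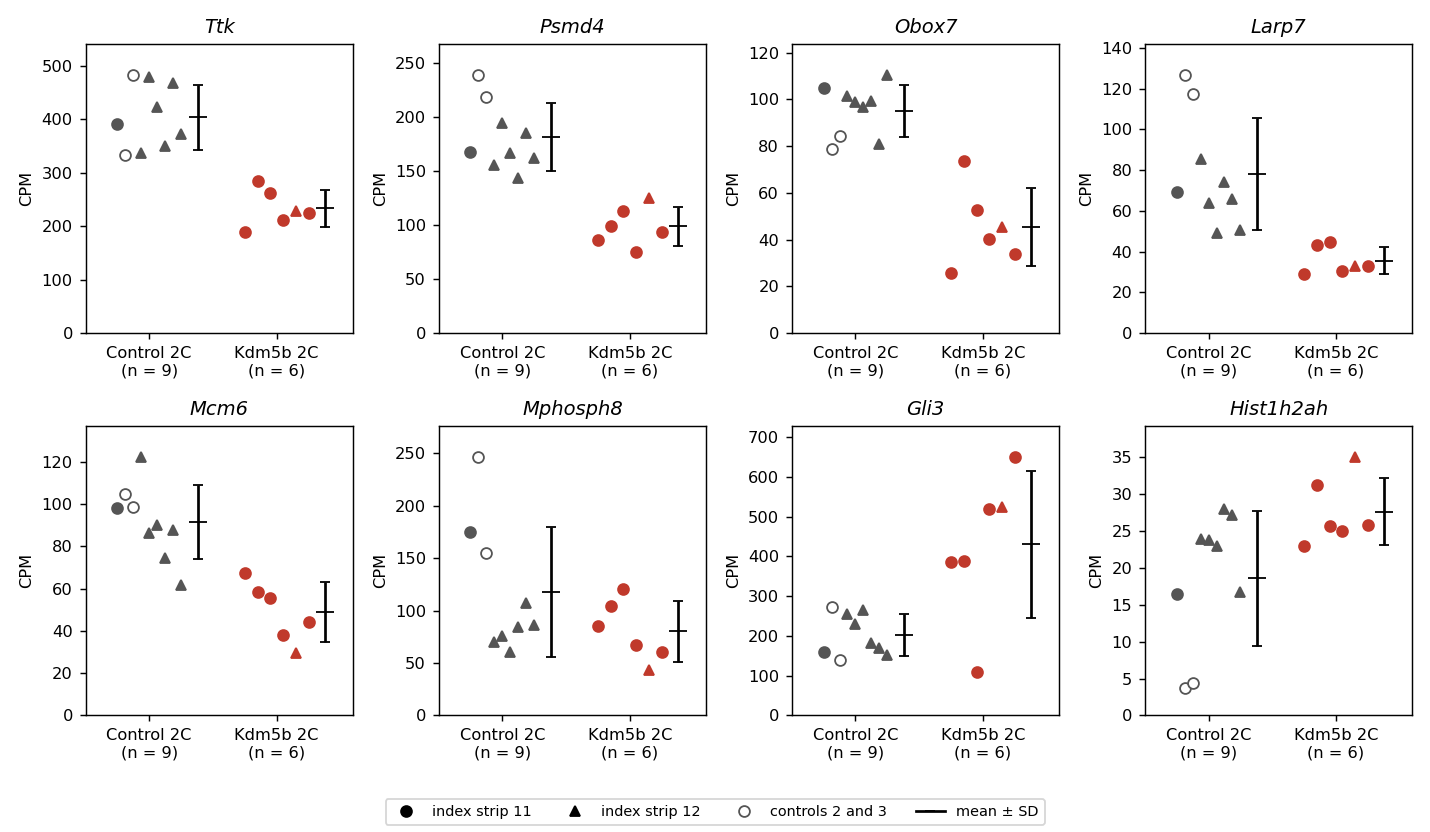
Levels (CPM) of 8 genes in each of the 15 samples, circles for strip 11, triangles for strip 12 and open circles for control samples 2 and 3, with mean and SD beside each group. Ttk, Psmd4, Obox7 and Larp7 do not overlap between the groups, while control samples 2 and 3 are the lowest in Hist1h2ah and sample 2 the highest in Mphosph8.

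With the strip term, 47 genes were lower (0.384%) and 6 higher (0.0490%) past both thresholds, and 185 lower (1.51%) and 68 higher (0.555%) at an adjusted p under 0.05 alone. The log2 fold changes of the 47 lower genes reached -1.89, with a median of -1.11, beside a median of 0.033 over all genes. Without control samples 2 and 3, neither direction had a gene at an adjusted p under 0.05 in this fit (0 lower and 0 higher by edgeR, with 561 and 397 at an unadjusted p under 0.05, of 12027 genes), which holds for every gene given below as called with the strip term. The smallest adjusted p was then 0.363. In that fit control sample 1 was the only control on strip 11, and Kdm5b sample 5 the only Kdm5b sample on strip 12. Each strip then held a single library of 1 group. The lack of calls, for genes or for the repeats below, therefore cannot show what control samples 2 and 3 contributed. The 47 genes had log2 fold changes of -1.90 to -0.39 in that fit, with a median of -0.99. Their choice used the samples that remained, so these values are a description.

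As a description of genes chosen on these samples, in 25 of the 47 lower genes (53.2%), control samples 2 and 3 were the highest 2 of the 9 controls, against 7.30% of all genes tested. In 4 of the 6 higher genes they were the lowest 2 controls, against 12.1% of all genes. Control sample 1, the other control on strip 11, was above all 5 Kdm5b samples of that strip in 44 of the 47 lower genes. Over all genes tested the share was 18.2%. The 1 Kdm5b sample on strip 12 was below all 6 controls there in 40 of the 47, against 15.7% of all genes tested. The 47 genes were chosen for being lower within strips in these same samples, so these counts follow in part from the choice and support nothing. Only 3 of the 47 genes (Larp7, Obox7 and Fra10ac1, the last named after its values had been seen) had every Kdm5b sample below every control when the strips were put together. What the strips and the genes detected contribute to the 47 was not tested.

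Among the 20 genes with the smallest p of the 47 lower genes past both thresholds with the strip term, several have known roles in RNA processing. Larp7 (chr3:127536714-127553349), which binds 7SK RNA in the complex that holds the elongation factor P-TEFb inactive, lay at 29.1, 33.0 and 44.9 CPM (lowest, median and highest) in Kdm5b 2C samples against 49.0, 69.4 and 127 CPM in the controls. Control samples 2 and 3 were the highest at 127 and 117 CPM, and the groups did not overlap. Its log2 fold change was -1.35 ± 0.20 with the strip term (adjusted p = 0.00551), -1.13 ± 0.21 without it (adjusted p = 0.0619) and -0.95 with the strip term and without the 2 controls (adjusted p = 0.434). Snrpb2, a protein of the U2 snRNP, had a log2 fold change of -1.11 ± 0.20 with the strip term (adjusted p = 0.00723), and Sart1, of the U4/U6.U5 particle, -1.05 ± 0.20 (adjusted p = 0.00986). Ppil4, a spliceosomal prolyl isomerase, was at -1.20 ± 0.20 (adjusted p = 0.00616), and Cwf19l2, a splicing-associated protein, at -1.07 ± 0.19 (adjusted p = 0.00723). Safb, a nuclear protein that binds RNA and scaffold attachment DNA, was at -1.11 ± 0.19 (adjusted p = 0.00723). Without the strip term none of these 6 genes passed an adjusted p of 0.05, their adjusted p running from 0.0619 to 0.248. Control samples 2 and 3 were also the highest 2 controls in Snrpb2, Sart1, Cwf19l2 and Safb, and sample 2 the highest in Ppil4. With the strip term and without these 2 controls, the log2 fold changes were -0.88 for Snrpb2, -0.65 for Sart1, -0.70 for Cwf19l2, -0.82 for Safb and -0.97 for Ppil4.

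A further group has roles in chromosomes and cell division. Mcm6 (chr1:128331575-128359705), a subunit of the replicative helicase, lay at 29.7, 49.96 and 67.2 CPM (lowest, median and highest) in Kdm5b 2C samples against 61.5, 89.97 and 122 CPM in the controls. In this gene 5 of 6 Kdm5b samples were below all controls, and control samples 2 and 3 were not set apart from the rest. Its log2 fold change was -1.11 ± 0.19 with the strip term (adjusted p = 0.00723), -0.90 ± 0.18 without it (adjusted p = 0.0894) and -1.22 with the strip term and without the 2 controls (adjusted p = 0.363). Incenp, the scaffold of the chromosomal passenger complex, had -1.26 ± 0.21 with the strip term (adjusted p = 0.00616), Ckap2, a spindle microtubule protein, -1.03 ± 0.20 (adjusted p = 0.00957), and Anapc2, the cullin of the anaphase-promoting complex, -1.03 ± 0.19 (adjusted p = 0.00723). Msh6, which recognises DNA mismatches, was at -1.22 ± 0.25 (adjusted p = 0.0150). Incenp and Msh6 were highest in control samples 2 and 3, at 373 and 274 CPM for Incenp, beside 90.6 to 247 CPM in the remaining controls.

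Chromatin regulators were represented by Mphosph8 and Hells. Mphosph8, the chromodomain reader of H3K9 methylation in the HUSH silencing complex, lay at 43.2, 76.3 and 120.4 CPM (lowest, median and highest) in Kdm5b 2C samples against 60.3, 86.3 and 246 CPM in the controls. The groups overlapped widely: the 3 controls on strip 11 held 155 to 246 CPM and the 6 on strip 12 60.3 to 107 CPM, so that its log2 fold change was -1.06 ± 0.19 with the strip term (adjusted p = 0.00723) and -0.55 ± 0.29 without it (adjusted p = 0.569). Hells, the LSH remodeller needed for DNA methylation of repeats, had -1.05 ± 0.20 with the strip term (adjusted p = 0.00986) and -0.64 ± 0.26 without it (adjusted p = 0.426). Neither passed without the strip term.

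The other named lower genes act elsewhere in the cell or are little characterised. Ccdc174, which is linked to the exon junction complex, lay at 7.20, 13.3 and 19.5 CPM (lowest, median and highest) in Kdm5b 2C samples against 18.6, 22.8 and 50.4 CPM in the controls, and its log2 fold change was -1.64 ± 0.25 with the strip term (adjusted p = 0.00551). Bbs4, of the BBSome that carries cargo to cilia, was at -1.32 ± 0.25 (adjusted p = 0.00831), Sec62, of the protein translocation channel of the endoplasmic reticulum, at -1.01 ± 0.19 (adjusted p = 0.00831), and the Golgi protein gene Blzf1 at -1.10 ± 0.20 (adjusted p = 0.00723). Zfp330 and Lrrc42 completed the 20, at -1.17 ± 0.23 and -1.05 ± 0.22.

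The 6 higher genes were fewer and less even. Gli3 (chr13:15463723-15730026), a transcription factor of the Hedgehog pathway, lay at 109.7, 455 and 649 CPM (lowest, median and highest) in Kdm5b 2C samples against 139, 181 and 272 CPM in the controls. The Kdm5b samples fell into 5 that were above every control, from 387 CPM up, and sample 3, which was below every control. Its log2 fold change was 1.18 ± 0.28 with the strip term (adjusted p = 0.0292), 1.08 ± 0.25 without it (adjusted p = 0.129) and 1.35 with the strip term and without control samples 2 and 3 (adjusted p = 0.480). Leaving out Kdm5b sample 3, Gli3 was past both thresholds without the strip term, the only higher gene that was. Hist1h2ah, a replication-dependent H2A gene, lay at 23.0, 25.7 and 35.0 CPM (lowest, median and highest) in Kdm5b 2C samples against 3.70, 23.0 and 28.0 CPM in the controls. Control samples 2 and 3 made up the low end at 3.70 and 4.34 CPM, and the log2 fold change of 1.36 ± 0.35 with the strip term (adjusted p = 0.0438) was 0.62 without them (adjusted p = 0.530). Histone genes also have near-identical copies. Ergic1, a protein that cycles between the endoplasmic reticulum and the Golgi, and Mmgt1, a membrane protein, were likewise lowest in control samples 2 and 3: Ergic1 was at 9.20 and 4.70 CPM there and at 20.1 to 39.8 CPM in the other controls. With the strip term, Pgap1, an enzyme that remodels GPI anchors, had a log2 fold change of 1.29 ± 0.33 (adjusted p = 0.0438). The phosphatase gene Pdxp had 1.03 ± 0.25 with it (adjusted p = 0.0319). Pdxp was also lowest in control samples 2 and 3, at 10.9 and 14.0 CPM beside 15.4 to 37.1 CPM in the other controls. Its log2 fold change was 0.51 without the strip term (edgeR, adjusted p = 0.520). With the term and without these 2 controls it was 0.75.

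Without the strip term, the 5 higher genes ranked first by p within those beyond the fold threshold were, beside Gli3, Bc1, Amotl2, Slc6a20a and Epn3, and none passed the adjusted p. Bc1, a small cytoplasmic RNA that restrains translation, lay at 2.81, 13.9 and 36.6 CPM (lowest, median and highest) in Kdm5b 2C samples against 0.354, 3.07 and 11.49 CPM in the controls, with an adjusted p of 0.248. Epn3, an endocytic adaptor, was at 0 in 6 of 9 controls and between 1.603 and 2.704 CPM in all 6 Kdm5b samples, above the highest control at 1.42 CPM (adjusted p = 0.332). Amotl2, of the angiomotin family, was at 29.0 CPM in Kdm5b sample 1 and at 0.841 to 6.88 CPM in the other 5 (adjusted p = 0.248). The amino acid transporter gene Slc6a20a was at 5.48 to 13.5 CPM against 2.59 to 7.36 CPM in the controls (adjusted p = 0.320). These are low levels with few fragments in some samples, and counting error weighs on them more than on most of the genes above. Pgap1, above, also had few fragments, at 42 to 111 in controls and 70 to 191 in Kdm5b samples.

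**Figure D3:**
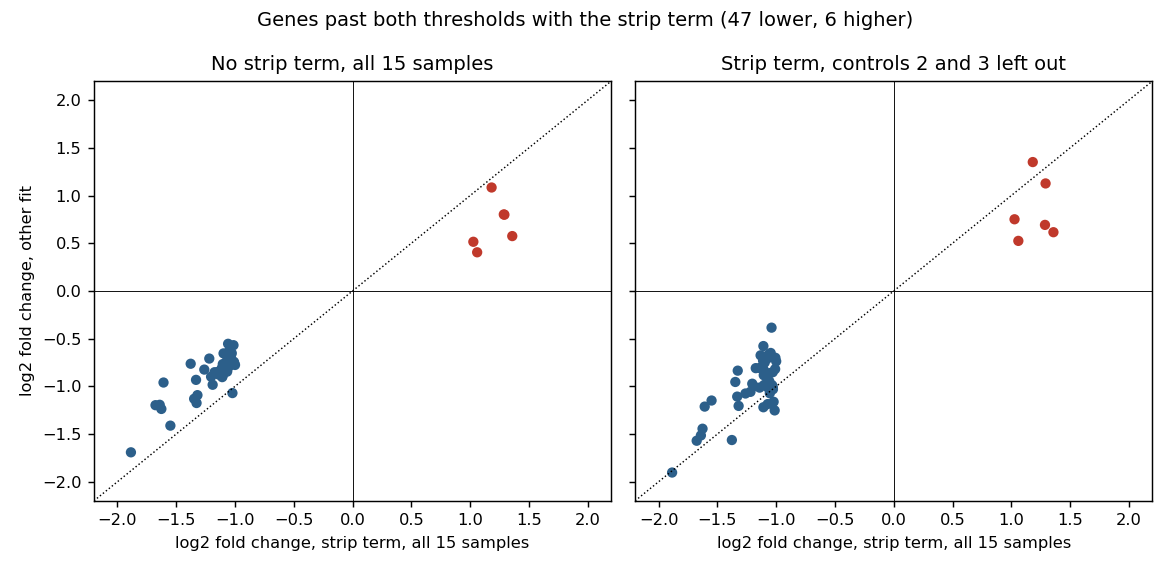
The log2 fold changes of the 53 genes past both thresholds with the strip term (x axis, 47 lower in blue and 6 higher in red) against those without the strip term (left) and with the strip term but without control samples 2 and 3 (right). The dotted line marks equal values. All 53 keep their sign in both panels, most lie nearer to 0 than on the x axis, and the genes were chosen on the x axis values.

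Genes were then grouped by lists of known function, and each list is described by its median log2 fold change and by how many members were lower or higher at an unadjusted p under 0.05 without the strip term, the sense of both words in the counts below, beside 4.91% lower and 4.50% higher over all genes. The median over all genes was -0.0028 without the strip term and 0.033 with it. Genes of the 2C embryo, which are switched on at the first wave of transcription and include the Zscan4, Tdpoz and Usp17l families, had a median of -0.63 over 41 genes tested, with 9 lower, 0 higher and 39 with a negative log2 fold change. With the strip term the median was -0.61, and without control samples 2 and 3 it was -0.63 without the strip term and -0.20 with it. Of the 41, 2 passed both thresholds once the strip term was added: Zscan4a, a telomere-associated zinc finger gene, and Gm8300, an Eif1a-like gene. Zscan4a (chr7:10794241-10799065) lay at 1.30, 8.67 and 17.5 CPM (lowest, median and highest) in Kdm5b 2C samples against 8.95, 31.1 and 49.7 CPM in the controls, and 1 control, sample 5 at 8.95 CPM, lay within the range of the Kdm5b samples. The log2 fold change was -1.89 ± 0.45 with the strip term (adjusted p = 0.0317) and -1.69 ± 0.40 without it (adjusted p = 0.154), and Gm8300 had -1.55 ± 0.39 (adjusted p = 0.0391) and -1.41 ± 0.36 (adjusted p = 0.234). Both belong to families of near-identical copies, so their counts are uncertain. The summed level of the list ranged from 931 to 1555 CPM in Kdm5b samples and from 811 to 2441 CPM in controls, so the groups overlapped.

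The 7 Obox family genes tested had a median of -0.64 without the strip term, with 4 lower and 0 higher. Adding the strip term gave -0.16, and -0.59 with it once control samples 2 and 3 were left out. Obox1 was at -0.70 ± 0.18 with the strip term (adjusted p = 0.0463) and -0.49 ± 0.19 without it (adjusted p = 0.395). Embryo activation and pluripotency factors had a median of 0.13 over 21 genes, 1 lower and 3 higher, and of 0.060 without control samples 2 and 3. The lower gene was Klf17, a zinc finger factor of the cleavage embryo, at -0.49 ± 0.14 (adjusted p = 0.248). Yap1, the Hippo pathway coactivator, which is also stored in the oocyte, lay at 1726, 1843 and 2136 CPM (lowest, median and highest) in Kdm5b 2C samples against 1181, 1541 and 1705 CPM in the controls, so that every Kdm5b sample was above every control. Yap1 had a log2 fold change of 0.33 ± 0.094 without the strip term (adjusted p = 0.248) and 0.42 ± 0.10 with it (adjusted p = 0.0413).

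The 32 tested oocyte transcription factors and maternal-effect genes had a median of 0.15, with 1 lower and 2 higher, and of 0.060 without control samples 2 and 3. The lower gene was Nobox, an oocyte homeobox factor, which lay at 57.3, 69.4 and 86.2 CPM (lowest, median and highest) in Kdm5b 2C samples against 82.98, 112 and 163 CPM in the controls. For Nobox the log2 fold change was -0.86 ± 0.16 with the strip term (adjusted p = 0.00794), -0.73 ± 0.16 without it (adjusted p = 0.108) and -0.86 with the strip term and without the 2 controls (adjusted p = 0.410). Oosp1, an oocyte-secreted protein gene, had 0.64 ± 0.14 with the strip term (adjusted p = 0.0232) and was lowest in control samples 2 and 3, at 383 and 382 CPM. The 23 H3K4 methyltransferases, their COMPASS partners and other H3K4 demethylases had a median of 0.057 without the strip term, 0 lower and 3 higher, but -0.12 with it, 4 lower and 4 higher at an unadjusted p under 0.05, so no direction is given for the list. Kmt2c, a monomethyltransferase of H3K4, was at 0.26 ± 0.084 without the strip term (adjusted p = 0.324) and the COMPASS subunit gene Wdr82 at 0.34 ± 0.11 (adjusted p = 0.331).

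Housekeeping machinery of gene expression lay mostly on the lower side of 0. The 42 genes of RNA polymerase I and ribosome biogenesis had a median of -0.40 without the strip term, with 11 lower and 0 higher, and 37 of 42 negative. Their median was -0.52 with the strip term and -0.28 without control samples 2 and 3, which held the highest summed levels of the list, at 4261 and 3559 CPM beside a control median of 2540 CPM. Wdr43, a small-subunit processome protein, was at -0.83 ± 0.14 with the strip term (adjusted p = 0.00723) and Ddx21, a nucleolar helicase, at -0.84 ± 0.21 (adjusted p = 0.0419). Transcription elongation factors (28 genes, median -0.25) had 6 lower and 0 higher, among them Larp7 and Supt5, a subunit of the pausing factor DSIF, at -0.73 ± 0.17 with the strip term (adjusted p = 0.0300). Of the 38 spliceosome and SR protein genes, 4 were lower and 0 higher (median -0.24), and Prpf31, a tri-snRNP protein, was at -1.01 ± 0.23 with the strip term (adjusted p = 0.0272). The 43 translation initiation factors had 5 lower and 1 higher (median -0.15), with Eif4b at -0.72 ± 0.14 (adjusted p = 0.00930) and Eif2s2, the beta subunit of eIF2, at -0.74 ± 0.16 (adjusted p = 0.0195), both with the strip term. Control samples 2 and 3 also held the highest summed levels of the spliceosome list, at 3373 and 3555 CPM (control median 2521 CPM), and of the elongation list, at 4433 and 4592 CPM (control median 3817 CPM). Without these 2 controls and without the strip term, the spliceosome median was -0.15 with 4 lower and 1 higher, the elongation median -0.18 with 5 lower, and 7 ribosome biogenesis genes were lower. With the strip term the spliceosome median was -0.35 and the elongation median -0.23. Leaving these 2 controls out of that fit gave -0.24 and -0.27. In these 4 lists 0 genes passed an adjusted p of 0.05 without the strip term, and with it 4, 4, 3 and 2 were lower and 0, 0, 0 and 1 higher, beside 1.51% and 0.555% over all genes.

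Replication licensing and S phase genes (38 tested) had a median of -0.17 without the strip term, 5 lower and 0 higher. Without control samples 2 and 3, whose summed levels were 2675 and 2686 CPM (control median 2278 CPM), the median was -0.094 and 3 were lower, again without the strip term. With the strip term the median was -0.26, and -0.29 once these 2 controls were left out. Pcna, the sliding clamp of DNA polymerases, lay at 34.7, 53.9 and 63.1 CPM (lowest, median and highest) in Kdm5b 2C samples against 54.2, 82.5 and 108 CPM in the controls. The groups overlapped through control sample 7, a pool, at 54.2 CPM, and the log2 fold change was -0.75 ± 0.17 without the strip term (adjusted p = 0.119) and -0.82 ± 0.18 with it (adjusted p = 0.0223). The 36 proteasome genes had a median of -0.14, 6 lower and 1 higher, with Psmd4 the only member at an adjusted p under 0.05 without the strip term. Their median was -0.23 with the strip term, and without control samples 2 and 3 it was -0.13 without that term and -0.36 with it. Psmd1, a scaffold subunit of the proteasome cap, was at -0.79 ± 0.18 with the strip term (adjusted p = 0.0275). Heat shock proteins and chaperones (27 tested) had 2 lower and 0 higher with a median of -0.24, which was -0.13 without control samples 2 and 3, the highest by summed level at 5133 and 4289 CPM (control median 3520 CPM). The median of this list was -0.39 with the strip term, and -0.28 with it and without these 2 controls. Cct2, of the TRiC chaperonin, was at -0.70 ± 0.16 with the strip term (adjusted p = 0.0223).

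Innate RNA sensing and interferon-stimulated genes, of which 20 of 43 could be tested, had a median of 0.016, 1 lower and 0 higher. Without control samples 2 and 3 the median was 0.17, and 0.23 with the strip term, while 2 genes were lower and 0 higher. The lower gene was Stat2, a mediator of interferon signalling, at -0.64 ± 0.29 (adjusted p = 0.496), and Ifitm3, a membrane protein induced by interferon, was at 0.56 ± 0.34 (adjusted p = 0.661). DNA damage, p53 and acute stress genes (26 tested) had 0 lower and 0 higher at an unadjusted p under 0.05 without the strip term, with a median of -0.066, and 3 lower and 0 higher with a median of -0.10 without the 2 controls. Trp53inp1, a p53 target, was at 0.24 ± 0.15 (adjusted p = 0.677) and Txnip, a redox regulator, at 0.32 ± 0.20 (adjusted p = 0.665). Genes of CCR4-NOT and mRNA decay (32 tested) had a median of -0.013, 1 lower and 3 higher. The lower one was Cnot4, a ubiquitin ligase of that complex, at -0.29 ± 0.10 (adjusted p = 0.332) with all 6 Kdm5b samples below all 9 controls, and Smg1, a kinase of nonsense-mediated decay, was at 0.43 ± 0.11 (adjusted p = 0.2103) with 5 of 6 Kdm5b samples above all controls.

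For 3 more lists the median also changed with the samples and terms in the fit. The 12 mitochondrially encoded genes tested had a median of 0.083 without the strip term and 0.66 with it, and -0.065 and 0.36 once control samples 2 and 3 were left out, so no direction is given for them. COX1, a subunit of cytochrome oxidase, lay at 2079 to 2729 CPM in the 3 controls on strip 11 and at 3732 to 8167 CPM in the 6 on strip 12. Replication-dependent and linker histone genes (56 tested) had a median of 0.16, 1 lower and 4 higher, which was 0.021 without the 2 controls. Hist1h2bk, an H2B gene, was at 0.61 ± 0.14 with the strip term (adjusted p = 0.0303) and Hist1h2an at -1.09 ± 0.37 without it (adjusted p = 0.353). The 84 cytosolic ribosomal protein genes had a median of -0.057, 7 lower and 0 higher, and -0.21 without control samples 2 and 3. Rpl22 was at -0.59 ± 0.21 (adjusted p = 0.366) with all Kdm5b samples below all controls. Of the cumulus cell markers, 4 could be tested, 0 passed in either direction, and Has2 and Kitl had the smallest p, at -1.29 ± 0.74 and 0.57 ± 0.39.

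**Figure D4:**
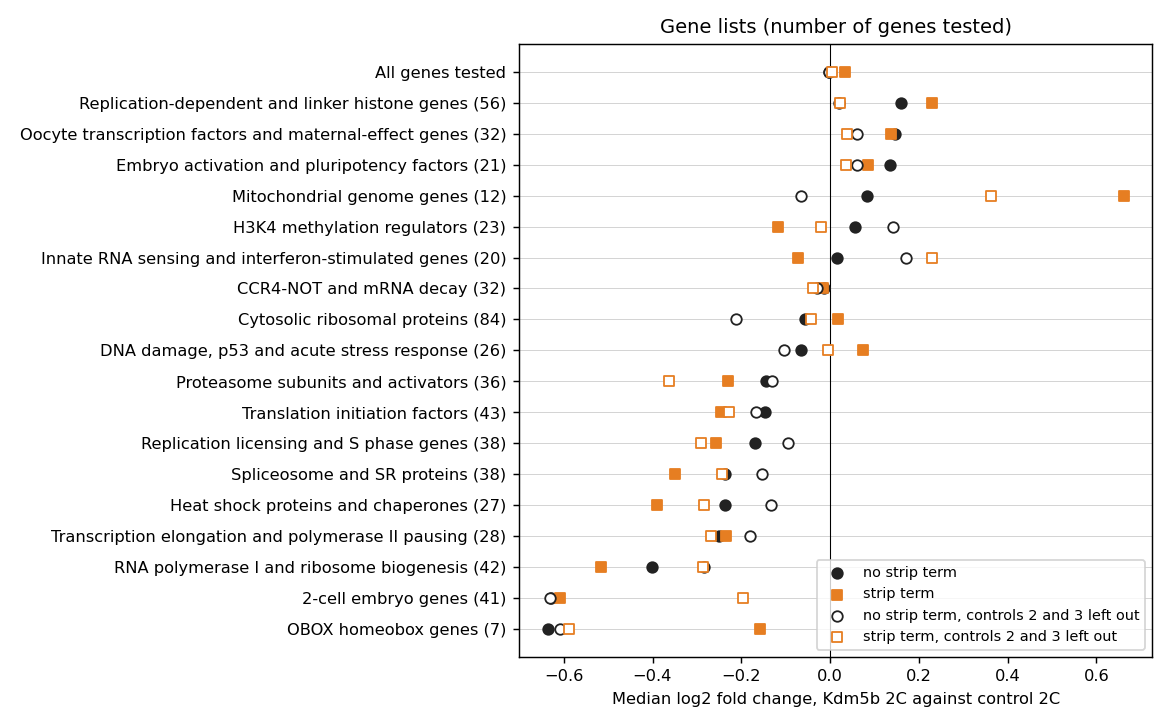
Median log2 fold change of 18 gene lists, with the number of genes tested in brackets and all genes on top. Black circles give the fit without the strip term, orange squares that with it, and open symbols the same fits without control samples 2 and 3. Several lists, among them the 2C embryo genes and ribosome biogenesis genes, lie below 0 in all 4 fits, while the mitochondrial genes spread from -0.065 to 0.66.

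Repeats were compared from the estimated counts of 2692 repeats that passed the filter, and their levels are scaled to the total of the repeat counts (repeat CPM). Without the strip term 0 were lower (0%) and 0 higher (0%) past both thresholds and 0 at an adjusted p under 0.05 alone by edgeR, with 128 lower and 50 higher at an unadjusted p under 0.05. DESeq2 also called 0 and 0 past both thresholds, and by adjusted p alone 5 lower, among them the CAAGAG repeat and RLTR20B3A_MM described below, and 1 higher, B2_Mm1t. Scaled to the gene counts instead of the repeat counts, the median of all repeats moved from -0.0027 to 0.10, 54 were lower and 148 higher at an unadjusted p under 0.05, and B2_Mm1t alone passed an adjusted p of 0.05, so the balance between lower and higher repeats depends on the scaling. Once the strip term was added, 16 were lower (0.594%) and 0 higher (0%) past both thresholds, and 57 lower (2.12%) and 2 higher (0.0743%) at an adjusted p under 0.05, which became 7 and 7 with the scaling to gene counts (median of all repeats 0.19). Of the 16, 15 were simple tandem repeats, a class that made up 1603 of the 2692 tested, and without control samples 2 and 3 both counts were 0 (edgeR, 79 lower and 48 higher at an unadjusted p under 0.05, of 2634 repeats). The lower repeat with the smallest p without the strip term was the tandem repeat of CAAGAG, which lay at 45.6, 59.6 and 68.4 repeat CPM (lowest, median and highest) in Kdm5b 2C samples against 71.3, 94.3 and 178 repeat CPM in the controls. The groups did not overlap, with control sample 2 the highest, and the log2 fold change was -0.93 ± 0.17 with the strip term (adjusted p = 0.0129), -0.79 ± 0.18 without it (adjusted p = 0.267) and -0.66 with it and without the 2 controls (adjusted p = 0.617). A tandem repeat of this kind is spread over many genes and places, so its count does not name a locus.

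Among interspersed repeats, RLTR20B3A_MM, a long terminal repeat of endogenous retroviruses, lay at 31.4, 48.5 and 71.3 repeat CPM (lowest, median and highest) in Kdm5b 2C samples against 59.02, 78.9 and 137 repeat CPM in the controls. In it 5 of 6 Kdm5b samples were below all controls, and the log2 fold change was -0.97 ± 0.22 with the strip term (adjusted p = 0.0296) and -0.88 ± 0.21 without it (adjusted p = 0.267). B2_Mm1t, a short interspersed element transcribed by RNA polymerase III or as part of longer transcripts, was 1 of the 2 higher repeats at an adjusted p under 0.05 with the strip term, the other being the tandem repeat of GAC. It lay at 3453, 4906 and 5835 repeat CPM (lowest, median and highest) in Kdm5b 2C samples against 2312, 2584 and 4366 repeat CPM in the controls. The Kdm5b samples had the higher median, but samples 4 and 6 lay within the range of the controls. Its log2 fold change was 0.78 ± 0.17 with the strip term (adjusted p = 0.0259), 0.70 ± 0.15 without it (adjusted p = 0.267) and 0.59 with it and without control samples 2 and 3 (adjusted p = 0.856). Of the related elements, B2_Mm1a was at 0.54 ± 0.15 without the strip term (adjusted p = 0.399) and B2_Mm2 at 0.45 ± 0.13 (adjusted p = 0.404). Over the 22 B1 to B4 elements the median was 0.12.

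MERVL and its promoter MT2_Mm, which are marks of the 2C stage, were looked at after their values had been seen. MERVL-int, the internal part of the element, lay at 20806, 53871 and 92040 repeat CPM (lowest, median and highest) in Kdm5b 2C samples against 38000, 92472 and 204644 repeat CPM in the controls. The controls alone spread widely, and 4 of 6 Kdm5b samples lay within their range. The log2 fold change was -0.94 ± 0.39 without the strip term (adjusted p = 0.740), -0.86 ± 0.42 with it (adjusted p = 0.346) and -0.13 with it and without control samples 2 and 3 (adjusted p = 0.996). Without these 2 controls and without the strip term MERVL-int was at -0.83 (adjusted p = 0.780). In the fit that gave -0.13, control sample 1, at 39296 repeat CPM, was the only control left on strip 11. MT2_Mm was at -0.72 ± 0.32 without the strip term (adjusted p = 0.741). Leaving out control samples 2 and 3 gave -0.75 for MT2_Mm without the strip term and -0.14 with it. IAPEz-int, an intracisternal A particle element, was at -0.34 ± 0.16 without the strip term (adjusted p = 0.745). A change in these elements was therefore not detectable against the spread between embryos. The medians were 0.046 over 129 MERVL and MaLR repeats, 0.16 over 25 young LINE-1 subfamilies and 0.021 over 203 ERVK repeats.

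**Figure D5:**
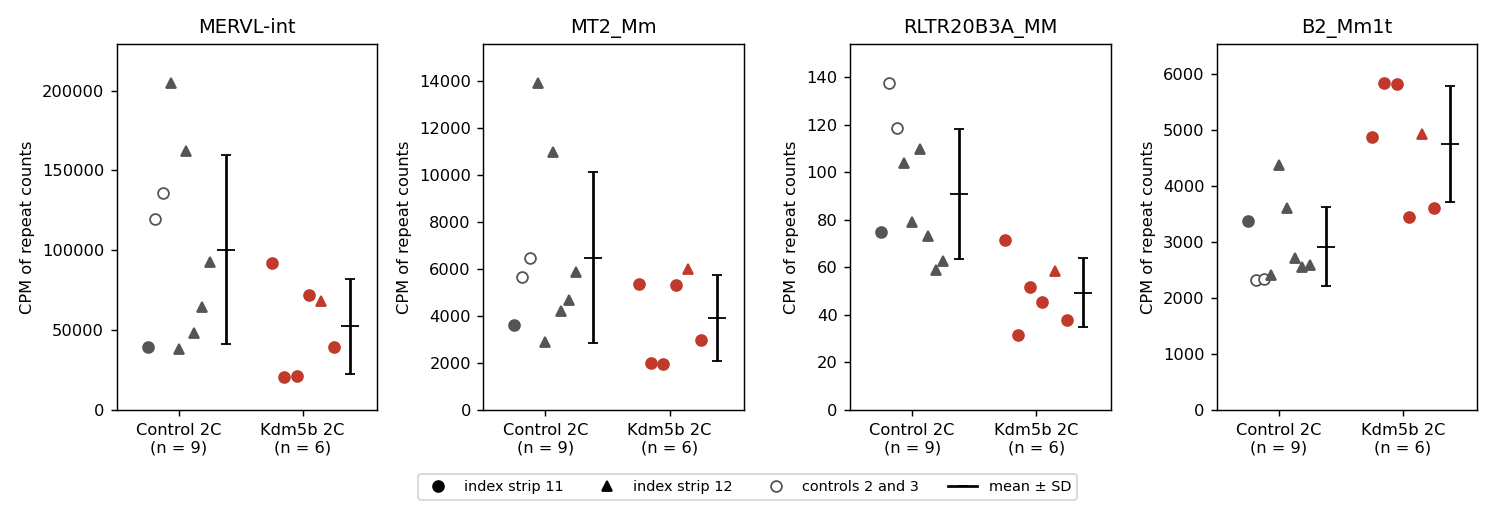
Levels (repeat CPM) of 4 repeats in each of the 15 samples, circles for strip 11, triangles for strip 12 and open circles for control samples 2 and 3, with mean and SD beside each group. MERVL-int and MT2_Mm overlap between the groups, RLTR20B3A_MM is lower in most Kdm5b samples, and B2_Mm1t is higher in 4 of 6 Kdm5b samples than in any control.

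Whether the injection acted differently in 2C embryos and in zygotes was tested as an interaction over all 35 samples and 13778 genes. At an adjusted p under 0.05, 14 genes (0.102%) were lower and 1 gene (0.00726%) was higher in 2C embryos relative to zygotes. Obox7 had an interaction of -1.04 ± 0.19 on the log2 scale (SE, adjusted p = 0.0152), with a log2 fold change of -0.027 in zygotes fitted alone. For Ttk the interaction was -0.665 ± 0.13 (adjusted p = 0.0152) and its log2 fold change in zygotes -0.12. Psmd4 did not pass, at -0.61 (adjusted p = 0.136). The smallest adjusted p belonged to Ddx5, an RNA helicase, at -0.73 ± 0.12 (adjusted p = 0.00772), and the sorting nexin gene Snx6, the kinase gene Camk2g, the oocyte gene Nlrp4f, the cohesin acetyltransferase gene Esco2, Hsf5, Fam133b, Pcna, Safb, Nobox, Wdr43 and Snrpb2 made up the rest of the 14. Rnf215, the higher gene, was at 0 in 7 of 9 controls, at most 0.237 CPM in the other two and up to 2.32 CPM in Kdm5b samples, too low to enter the 2C comparison. Without control samples 2 and 3, 7 genes were lower and 0 higher, and Ddx5, Obox7, Ttk, Snx6 and Camk2g were called both times. Among the named lower genes, Sart1 and Supt5 were also lower in Kdm5b zygotes fitted alone (edgeR), at -0.42 ± 0.086 (adjusted p = 0.0335) and -0.35 ± 0.073 (adjusted p = 0.0348). Neither passed the interaction test (adjusted p = 0.667 and 0.679). Names in this paragraph that are outside the naming rule were chosen after their values had been seen. Stage and preparation cannot be told apart in this test, since the 2C embryos had been frozen and thawed as zygotes, and libraries were made on 2 days.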

How the data were processed

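Total RNA of single or pooled 2C embryos was sequenced (SMART-Seq Stranded kit). The authors trimmed reads with fastp 0.21.0, aligned them with STAR 2.7.3a to GRCm38 and deposited raw counts per gene (featureCounts 1.5.1, RefSeq annotation, stranded; multimapping fragments were not counted, which affects gene families and repeated histone copies). The authors also deposited estimated counts per repeat (SalmonTE), of which 5.04% were not whole; these were rounded here. The authors' gene tables held 24480 genes and 18536 repeats.

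Samples were grouped by their labels. The Kdm5b row was removed, genes were filtered with filterByExpr (minimum count 10), TMM factors were computed and edgeR 4.0.16 quasi-likelihood tests were run on the 15 samples, without and with strip as a term, with Benjamini-Hochberg adjustment over all genes or repeats tested (thresholds: 0.05 for the adjusted p, 1 for the size of the log2 fold change). The interaction used all 35 samples. Levels are CPM after removal of Kdm5b, means with SD, and log2 fold changes with SE. Count tests were checked on simulated data. Alternatives were DESeq2 1.42.0, limma 3.58.1 (voom), other filters, a replicate block, strip 11 alone, single embryos, and leaving out each sample. Fits without control samples 2 and 3, and those combining pools and strips, were chosen after seeing the data. The labels call the samples biological replicates, and do not say whether embryos shared a litter.

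Genes were named where they passed both thresholds without the strip term, or were among the 20 lower or 10 higher with the smallest p past both thresholds with it, the 5 higher and 5 lower with the smallest p past the fold threshold without it, or up to 4 members of each list with the smallest p in either fit; repeats were named as the 5 higher and 5 lower with the smallest p in each fit. Of the genes this rule names, 1 is not reported here. The groups, lists and this rule were chosen with earlier results of these data known. Promoter sequence is from RefSeq; 9390 of 12244 tested genes had an entry.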

Additional observations from a re-analysis of the deposited data

Results flagged for a closer look

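For the genes and repeats named, 178 groups of 6 or 9 samples were tested for a sample far from the rest (Dixon's test), of which 12 were picked out, against about 1 in 20 by chance. In Kdm5b samples they were Amotl2 in sample 1 (28.95 CPM), Ddx21 in sample 2 (32.76 CPM), Eif2s2 in sample 3 (178.7 CPM), Has2 in sample 1 (4.055 CPM) and IAPEz-int in sample 4 (1855 repeat CPM). In controls they were Epn3 in sample 8 (1.416 CPM), Stat2 in sample 6 (20.79 CPM), Cnot4 in sample 8 (365.7 CPM), Rpl22 in sample 6 (28.11 CPM), the CAAGAG tandem repeat in sample 2 (177.9 repeat CPM), tRNA-Tyr-TAC in sample 1 (1.406 repeat CPM) and B2_Mm2 in sample 5 (4889 repeat CPM). The samples were spread over the groups, and control sample 3 did not appear among them. Dixon's test looks for 1 sample far from the rest. Where control samples 2 and 3 were both extreme, as in Hist1h2ah (3.70 and 4.34 CPM), each can hide the other. The absence of control sample 3 therefore says nothing about how far it stood apart.

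Another 7 named genes were picked out because their log2 fold change in 2C embryos was below that in zygotes by the interaction test at an adjusted p under 0.05 (edgeR). The differences were -1.04 for Obox7, -0.92 for Snrpb2, -0.87 for Safb, -0.76 for Pcna, -0.73 for Nobox, -0.665 for Ttk and -0.65 for Wdr43. Without control samples 2 and 3, Obox7 and Ttk passed and the other 5 did not.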

How the results depend on the processing

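Counts past both thresholds depended on the samples and terms used, and causes were not tested beyond the construction of each setting. Without the strip term, genes lower (1) became 4 with DESeq2, 2 without a filter or with a mean of at least 50 counts, 0 in single embryos, 0 in single embryos of strip 11, 66 in strip 11 alone, 55 in a single fit of all 35 samples, 3 by adjusted p alone and 47 with the strip term, and genes higher (0) became 1 with DESeq2 or no filter, 4, 15 and 6 in strip 11, the 35-sample fit and with the strip term. Repeats lower (0) became 7 without a filter, 14 in strip 11 and 16 with the strip term, and repeats higher (0) became 1 and 2 in the first 2 of these. With the strip term, genes lower (47) became 71 with DESeq2, 16 with voom, 3 in single embryos, 0 without control samples 2 and 3, 0 in single embryos of strip 11 and 185 by adjusted p alone; genes higher (6) became 17, 2, 0, 0, 0 and 68, and 10 without a filter or 11 with a mean of at least 50 counts. Repeats lower (16) became 26 with DESeq2, 2 with factors from gene counts (57 lower and 2 higher by adjusted p became 7 and 7), 27 without a filter, 0 without simple repeats, 0 in single embryos, 0 without control samples 2 and 3 and 57 by adjusted p alone, and repeats higher (0) became 21, 5 and 2 with DESeq2, no filter and adjusted p alone. The interaction counts of 14 lower and 1 higher became 7 and 0 without control samples 2 and 3.

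Leaving out each sample gave 0 to 2 genes lower and 0 to 1 higher without the strip term: Obox7 lost the fold or p threshold without control samples 1, 4, 5, 7 or 9 or Kdm5b samples 1, 3, 4, 5 or 6 (log2 fold change -1.26 to -0.95), the lower count was 2 without control sample 6 and the higher count 1 without Kdm5b sample 3. Repeats gave 0 to 0 in both directions. Under the strip term, genes lower ranged from 15 to 87 (15 without control sample 2, 27 without control sample 3 or Kdm5b sample 4, 26 without Kdm5b sample 6, 87 without Kdm5b sample 5) and genes higher from 0 to 44 (44 without control sample 1, 15 without Kdm5b sample 5, 0 without Kdm5b sample 6, 1 without control samples 2 or 3 or Kdm5b samples 3 or 4, 2 without Kdm5b sample 1, and 3 without control samples 7, 8 or 9 or Kdm5b sample 2). Repeats lower ranged from 0 to 42 (42 without control sample 1, 0 and 2 without control samples 3 and 2, 8, 5 and 4 without Kdm5b samples 3, 4 and 6) and repeats higher from 0 to 15 (15 without control sample 1, 6 without Kdm5b sample 5). The Kdm5b share differed by 11.1 to 12.6 percentage points.

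Replicate numbers did not pair the samples (correlations of deviations of same-numbered samples -0.24 to 0.084), and a replicate block gave 3 genes lower without the strip term and, with it, 0 genes lower, 0 genes higher and 0 repeats lower.

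Signs turned in 4 cases. The Txnip log2 fold change, with strip term, was -0.12 without control samples 2 and 3. The ND4L log2 fold change without the strip term was 0.55 in strip 11 and 0.29 in its single embryos. The ND4L log2 fold change, with strip term, was -0.31 with voom, -0.00068 in single embryos and -0.35 without control samples 2 and 3, and leaving out 1 sample gave -0.088 (control sample 3; -0.040 without Kdm5b sample 6) to 0.56. The COX1 log2 fold change was -0.041 with voom, and -0.033 (without Kdm5b sample 6) to 0.34 leaving out 1 sample, without the strip term. Values of the named genes otherwise kept direction and side of the threshold in 1718 settings without and 1392 with the strip term, lost the call in 14 and 241 and gained it in 42 and 7.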

Other observations

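Among the 253 genes at an adjusted p under 0.05 with the strip term, 14 of the 185 lower and 6 of the 68 higher had no overlap between the groups over all 15 samples (0.131% lower and 0.0980% higher over all genes), a count that their choice on these same samples favours and from which nothing is read. Beside those described above, lower ones included Snw1, a spliceosome and transcription cofactor, with a log2 fold change of -0.94 ± 0.16 with the strip term (edgeR, adjusted p = 0.00616) and -0.77 ± 0.16 without it (adjusted p = 0.106). Gtpbp4, a GTPase of large ribosomal subunit assembly, was at -0.84 ± 0.15 with the strip term (adjusted p = 0.00723), and Paip2, a partner of the poly(A)-binding protein, at -0.75 ± 0.16 (adjusted p = 0.0195). Pdcd4, an inhibitor of the eIF4A helicase, was at -0.63 ± 0.14 (adjusted p = 0.0249). Higher ones included Rcan3, a calcineurin regulator, which lay at 340.0, 351 and 384 CPM (lowest, median and highest) in Kdm5b 2C samples against 224, 255 and 296 CPM in the controls (0.50 ± 0.11 with the strip term, adjusted p = 0.0181). Mlxip, a glucose-responsive transcription factor, was at 0.56 ± 0.12 (adjusted p = 0.0200). These genes were picked after their values had been seen, and each had an adjusted p over 0.4 with the strip term and without control samples 2 and 3.

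A comparison of CG dinucleotides before the starts of the lower and higher genes was void, since 51 of the 68 higher genes and 19 of the 41 genes of the 2C embryo had a RefSeq entry, under 80% in both.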
